A study of Homo sapiens with 6 samples.

Results

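The HOX genes are described here in BT-549/tet-WDR5shRNA cells, taken as every row of the deposited gene table whose symbol is HOXA, HOXB, HOXC or HOXD followed by a number. This gave 35 genes of the 19792 in the table. GENCODE 44 holds 39 HOX genes, and the other 4, HOXB1, HOXD3, HOXD10 and HOXD12, have no row and were not analysed here. BT-549, a human triple-negative breast cancer (TNBC) line, had been given an inducible shRNA against WDR5 that is made once doxycycline (DOX) is added. Triplicate cultures received vehicle (0.1% DMSO) or 500 ng/ml DOX for 7 days, and 3 libraries of each were sequenced. All 6 libraries came from the same line with the same shRNA, and none with a control shRNA was analysed here. The measure is the authors' mean normalized count over all 6 libraries, vehicle and DOX together. It therefore gives the level of each HOX gene averaged over both treatments, and no difference between DOX and vehicle was tested. For a gene that differed between them, the mean is the level of neither.

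HOX genes encode homeodomain transcription factors that give cells their position along the body axis. In mammals they lie in 4 clusters on different chromosomes, and genes with the same number in different clusters (paralogs) descend from the same ancestral gene. Low numbers are used towards the head and high numbers towards the tail and the ends of the limbs, and cell lines tend to keep the HOX pattern of the tissue they came from. The clusters are a classic target of the opposed Trithorax and Polycomb systems. COMPASS methyltransferases, which depend on WDR5, place the active mark H3K4 methylation on HOX genes, whereas Polycomb complexes keep unused HOX genes silent.

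Values of single libraries were recovered only for genes of low level. The lowest values of the table fall on 6 steps, each of which is what 1 read of 1 library adds to the mean, and all 3195 rows below a mean of 1 could be written as whole reads in exactly 1 way. The steps show that the deepest library had 1.82 times the size factor of the shallowest, while the total depth of each library is unknown. For all 19 HOX genes with a mean of 50 or less, the mean was taken apart into reads of each library in the same way. Which of the 6 libraries were vehicle or DOX was not used, so that each range given over libraries spans both treatments. The other 16 HOX genes are given as means with no error. For WDR5, the gene targeted by the shRNA, the authors' mean normalized count was 1143, and its silencing could not be read from a mean over both treatments. Of the receptors that define TNBC, ESR1 and PGR had means of 0.790 and 0.801, and ERBB2 had 1221. Per kb of exons, ERBB2 was at 118, where the median coding gene was at 79.5. These RNA levels do not measure the receptor proteins. The mesenchymal genes VIM, FN1 and CDH2 had means of 47782, 30461 and 4093, and the epithelial genes EPCAM, KRT8, CDH1 and KRT18 had 1.30, 57.3, 59.6 and 435. Of genes that a breast line should lack, CD3E had no row, PECAM1 and ALB had means of 2.86 and 4.0, and the leukocyte gene PTPRC had 44.7.

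The 4 clusters differed widely in level. All 9 HOXC genes and 8 of 9 HOXB genes had a mean normalized count of at least 10, as did 4 of 11 HOXA genes and 0 of 6 HOXD genes. Together, 21 of 35 HOX genes (60%) reached this minimum, against 68.5% of all rows of the table. A mean below 1 was found for 9 HOX genes (25.7%), against 16.1% of all rows. The median HOX gene had a mean of 13.03, at percentile 33.2 of the table, where the median row had 187. Of the 35 genes, 12 were above the median row, 6 of them in HOXB and 6 in HOXC. The genes nearest to the minimum of 10 were HOXA9, with a mean of 10.1, and HOXB9, with 9.11.

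**Figure D1:**
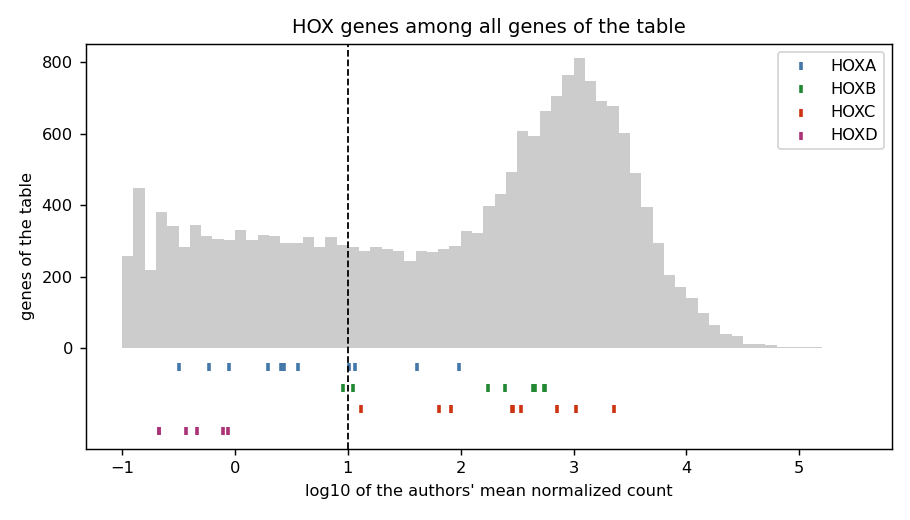
Histogram of the log10 mean normalized count of all 19792 genes (grey), with 1 tick per HOX gene below it, coloured by cluster, and a dashed line at a mean of 10. All HOXD ticks lie left of the line and all HOXC ticks lie right of it.

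To compare genes with each other, each mean was divided by the exonic length of the gene in GENCODE 44 and is given as normalized counts per kb. On this scale, HOXC genes held 60.9% of the summed HOX level, HOXB genes 37.5%, HOXA genes 1.60% and HOXD genes 0.0429%. The summed level of HOXC was 1.62 times that of HOXB, and the sum of HOXB was 23.5 times that of HOXA. The median member had 122 normalized counts per kb in HOXC, 133 in HOXB, 1.498 in HOXA and 0.201 in HOXD, while the median of 15551 coding genes was 79.5. The highest levels were those of HOXC10 at 969 per kb, HOXB7 at 367, HOXC6 at 301, HOXC8 at 294 and HOXB4 at 223. No error could be given for these 5 genes, so that the order of near neighbours such as HOXC6 and HOXC8 was not tested.

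**Figure D2:**
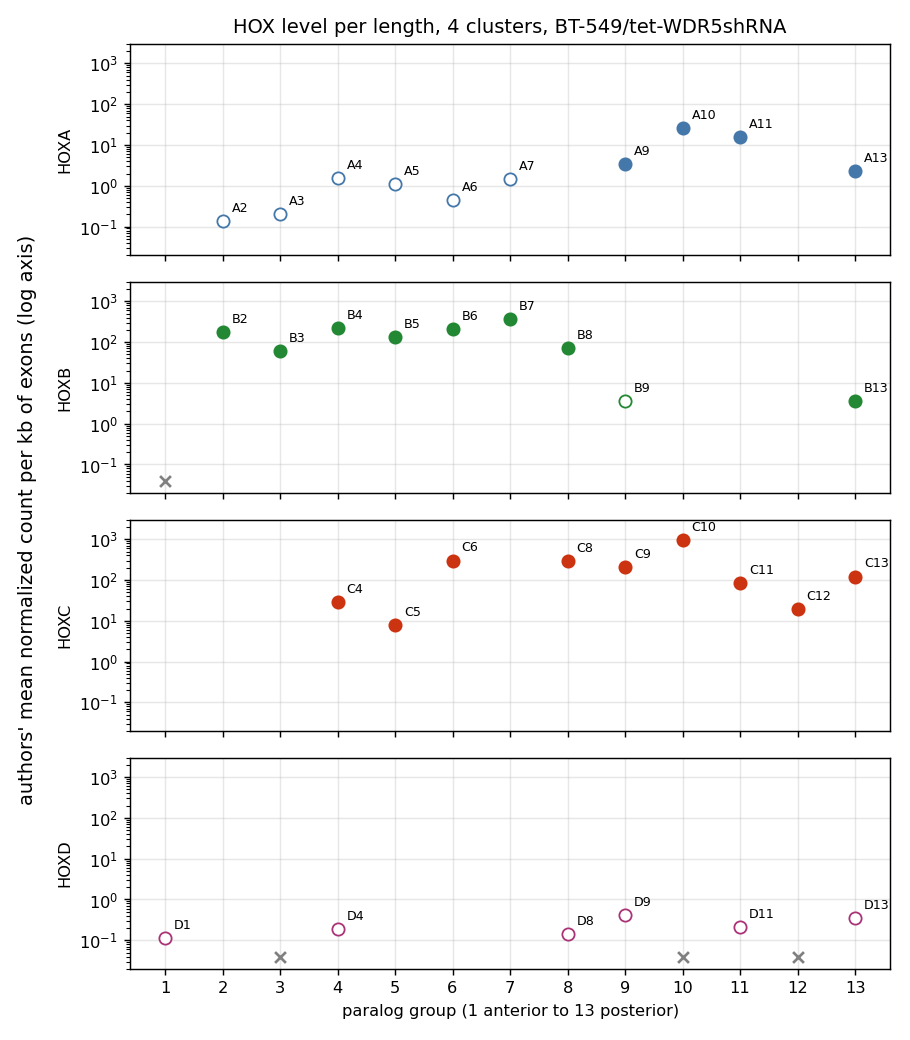
Authors' mean normalized count per kb of exons (log axis) for HOX genes against their paralog group, 1 panel per cluster. Filled points have a mean of at least 10, open points a lower mean, and grey crosses mark the 4 annotated genes without a row; HOXC is filled throughout, HOXA only from A9 on, and HOXD not at all.

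HOXC, on chromosome 12 of GRCh38 from 53938831 to 54056030 on the plus strand, was expressed over its whole length. HOXC10, a posterior gene used in the hindlimb and lumbar region of the embryo, had a mean normalized count of 2297 (chr12:53985065-53990279), above 85.7% of the table. It held 47.7% of the summed HOXC level per kb, and was 3.30 times HOXC8 on that scale. HOXC6, HOXC8 and HOXC9, which pattern the thoracic region, had means of 1041, 710 and 340, or 301, 294 and 204 per kb. Towards the posterior end, HOXC11 had a mean of 282 and HOXC12 one of 64.2. HOXC13, known for its part in hair and nail formation, had a mean of 288, and per kb it lay at 122 between HOXC9 and HOXC11. At the anterior end, HOXC4 had a mean of 81.7 and HOXC5 one of 13.03. HOXC5 was seen in all 6 libraries, with a normalized count of 8.14 in the lowest, 12.8 in the median and 19.8 in the highest library, from 82 reads in all. Per kb, HOXC5 was the lowest member of the cluster at 8.09, followed by HOXC12 at 19.7 and HOXC4 at 29.5. Of the exonic length of HOXC5, 67.3% is shared on the same strand with other annotated transcripts, against 17.5% for HOXC4, and how the counting treated such reads is not given in the sources used here.

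HOXB lies on chromosome 17 from 48528526 to 48728750 on the minus strand. It was expressed in its anterior and central genes from HOXB2 to HOXB8 and far lower at its posterior end. HOXB1, its most anterior gene, had no row. The 7 genes from HOXB2 to HOXB8 lay between 60.7 and 367 normalized counts per kb, a 6.05-fold range. HOXB7, a gene often found at raised levels in breast cancer, was the highest of the cluster, with a mean normalized count of 558 (chr17:48607232-48633572). HOXB6 had a mean of 548, HOXB5 one of 247 and HOXB8 one of 174. HOXB4, which expands blood stem cells when overexpressed, had a mean of 446. HOXB2 and HOXB3, genes of the embryonic hindbrain, had means of 441 and 451. Per kb, the value of HOXB3 depended on the length taken, with 60.7 over all annotated exons (7425 bases), which made it the lowest of the 7, and 137 over the MANE Select transcript, where HOXB8 was the lowest at 79.7. The level fell from 72.2 per kb for HOXB8 to 3.52 per kb for HOXB9, the next gene on the chromosome, a 20.5-fold difference. HOXB9 had 54 reads in all, and its normalized count was 2.58 in the lowest, 6.44 in the median and 21.4 in the highest library. The highest library was thus 8.31 times the lowest, the widest range among the 9 HOX genes that had reads in all 6 libraries and a mean of 50 or less. HOXB13, a marker of the prostate, which lies apart from the other genes of the cluster, had 67 reads, with normalized counts of 7.75, 11.2 and 14.9 in the lowest, median and highest library.

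HOXA, on chromosome 7 from 27092993 to 27200091 on the minus strand, had a far lower level. It was the reverse of HOXB, with the posterior genes HOXA10 and HOXA11 on top. Only the posterior genes HOXA9, HOXA10, HOXA11 and HOXA13 had a mean normalized count of at least 10. HOXA10 and HOXA11, best known from the uterus and the limb, were the highest, with means of 97.2 and 41.2. For HOXA11 (chr7:27181157-27185232), the lowest library had a normalized count of 32.0, the median library 40.5 and the highest 55.5, from 253 reads. HOXA13, a gene of the digits and genital tract, had 72 reads, and its normalized counts were 7.76, 9.59 and 18.1 in the lowest, median and highest library. HOXA9, a leukemia-associated gene, had 65 reads and normalized counts of 5.43, 9.48 and 15.5. Per kb, the lowest library of HOXA11 (12.01) lay above the highest library of HOXA9 (5.11) and of HOXA13 (3.56), whereas HOXA9 and HOXA13 overlapped. HOXA9 (from 1.79) and HOXA13 (from 1.53) also overlapped HOXA4, HOXA5 and HOXA7 (up to 2.36, 2.01 and 2.57), whose means lie below 10. Of the anterior genes, HOXA4, HOXA5 and HOXA7 had means from 1.94 to 3.61 and between 12 and 22 reads each. HOXA4, HOXA5 and HOXA7 had at least 1 read in every library. HOXA2, HOXA3 and HOXA6 had 2, 6 and 4 reads over all 6 libraries. Of the exons of HOXA7, 62.5% are overlapped on the other strand by HOXA-AS3, which had 1 read in all. HOXA10-AS overlaps 13.9% of HOXA9 exons in the same way, and HOXA11-AS overlaps 27.2% of HOXA11 exons.

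HOXD, on chromosome 2 from 176092721 to 176190907 on the plus strand, was close to the limit of detection. Its 6 genes with a row had 18 reads in all 6 libraries together, and their summed level was 1.43 normalized counts per kb. HOXD1 and HOXD4 had 1 read each, HOXD8 had 2, HOXD11 had 3, HOXD9 had 5 and HOXD13, a gene of digit formation, had 6. HOXD13 had 5 of its 6 reads in 1 library, and HOXD9 had 4 of its 5 reads in the same library. That library held 12 of the 18 HOXD reads (66.7%), against 20.1% of the reads of all rows below a mean of 1 and 17.99% of the reads of the 10 HOXA genes taken apart. Another library, the one with the largest size factor (1.34), had 0 HOXD reads, which by counting error alone allows an expected count of up to about 3. Without the library that held 12 HOXD reads, the summed HOXD level was 0.763 per kb. The means of HOXD13 and HOXD9 were then 0.172 and 0.252 in place of 0.862 and 0.785.

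**Figure D3:**
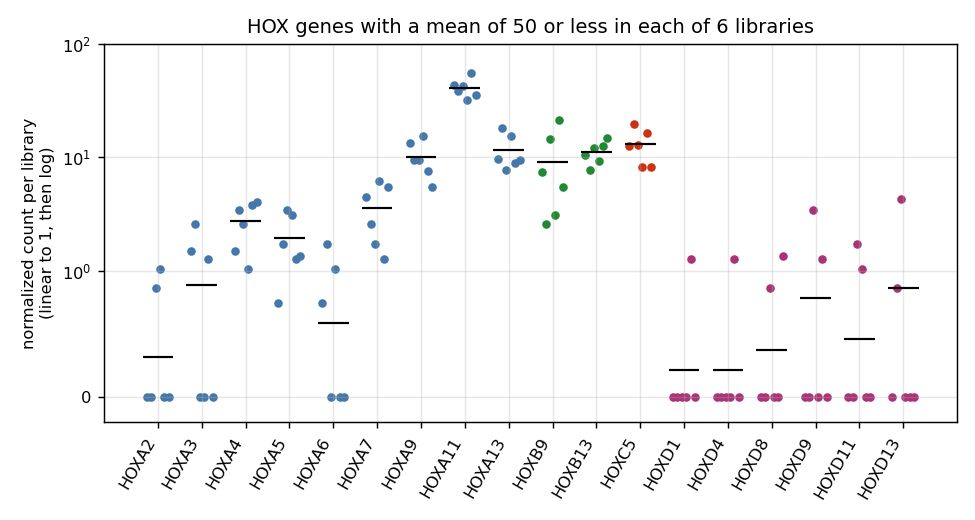
Normalized count in each of 6 libraries (points, in the same order of size factor for each gene; the axis is linear to 1 and logarithmic above) for 18 HOX genes with a mean of 50 or less, with the mean as a black line. HOXA11 lies between 32.0 and 55.5, while each HOXD gene is at 0 in at least 4 of 6 libraries.

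Within each paralog group, 1 cluster usually supplied most of the level. In groups 2 to 5 and in group 7 the highest gene per kb was that of HOXB. It was that of HOXC in group 6, groups 8 to 11 and group 13. In group 12, HOXC12 was the only gene with a row, so that no genes could be compared. The clusters were closest in group 6, where HOXC6 was 1.43 times HOXB6 per kb. In group 8, HOXC8 was 4.07 times HOXB8. In group 9, HOXC9 at 204 per kb stood beside HOXB9 at 3.52 and HOXA9 at 3.34, and HOXC9 was 57.9 times HOXB9 (35.8 to 65.4 times over 5 length scalings). In group 10, HOXC10 was 36.9 times HOXA10 (23.6 to 36.9 times), and in group 11, HOXC11 was 5.59 times HOXA11. In group 4, HOXB4 was 7.54 times HOXC4 (4.65 to 7.54 times). Apart from group 12, where no other gene had a row, the highest gene of each group was the same in all 5 scalings. The smaller members of groups 2, 3 and 7 are HOXA genes with at most 22 reads, and no ratio is given for them.

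The promoters of these genes are known for their CpG content, since both COMPASS and Polycomb complexes are drawn to unmethylated CpG islands. RefSeq promoter windows (GRCh38.p14, 300 bases around a start, most of them before it) were matched by symbol for 16 of the 35 genes, with 22 distinct windows. These were 9 HOXA genes, 5 HOXD genes, HOXC4 and HOXC5, so that 0 HOXB genes and 0 of the 13 HOX genes with a mean of at least 100 were covered. They are shown for the pair of genes with the same window, for the highest HOXA gene and for a HOXD gene with 1 read. Each CpG is in capitals. HOXC4 and HOXC5 share the window chr12:54016638-54016937 on the plus strand, with 15 CpGs. HOXA10 is shown with 1 of its 2 windows, chr7:27179812-27180111 on the minus strand, with 21 CpGs. The other, chr7:27174271-27174570, has 25 CpGs and is not shown. HOXD4 is shown with chr2:176151300-176151599 on the plus strand, with 4 CpGs, the fewest of the 5 HOXD genes. HOXD1, which also had 1 read, has 36 CpGs in its window and is not shown.
HOXC4 and HOXC5: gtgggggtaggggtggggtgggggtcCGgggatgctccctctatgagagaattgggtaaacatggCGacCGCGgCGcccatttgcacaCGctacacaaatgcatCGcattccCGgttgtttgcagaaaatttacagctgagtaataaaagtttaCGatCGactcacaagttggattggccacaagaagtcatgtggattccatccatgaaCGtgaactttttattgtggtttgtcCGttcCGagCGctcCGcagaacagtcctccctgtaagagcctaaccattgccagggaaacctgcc
HOXA10: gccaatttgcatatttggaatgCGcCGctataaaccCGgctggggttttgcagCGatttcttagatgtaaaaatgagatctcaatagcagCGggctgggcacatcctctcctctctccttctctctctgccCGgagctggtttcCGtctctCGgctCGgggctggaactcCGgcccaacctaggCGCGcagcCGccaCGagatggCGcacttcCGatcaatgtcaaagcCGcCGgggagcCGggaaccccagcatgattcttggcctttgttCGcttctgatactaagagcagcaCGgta
HOXD4: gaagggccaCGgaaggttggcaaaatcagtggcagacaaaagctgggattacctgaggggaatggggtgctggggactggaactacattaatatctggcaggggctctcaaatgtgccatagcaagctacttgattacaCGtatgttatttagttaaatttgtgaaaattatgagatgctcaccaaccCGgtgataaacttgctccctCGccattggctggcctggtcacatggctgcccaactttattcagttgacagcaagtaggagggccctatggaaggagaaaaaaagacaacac

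The genes that share this window differed in level, with HOXC4 at 29.5 and HOXC5 at 8.09 normalized counts per kb. The difference was 3.65-fold per exonic length, 5.92-fold per length of the MANE Select transcript and 6.27-fold between the means. The start from which they were transcribed was not measured. The median ratio of observed to expected CpG was 0.814 over the 22 HOX windows and 0.579 over all 35116 windows. HOXA13, with a mean of 11.6, had a ratio of 1.01, while HOXD1 and HOXD4, with 1 read each, had 0.871 and 0.244. HOXA10, with a mean of 97.2, had 0.875 in the window shown and 0.849 in its other window. For the rank correlation with the mean, the highest ratio of each gene was taken, and the window of HOXC4 and HOXC5 was counted once. Over the resulting 15 genes it was 0.20, given as a description of genes that share clusters and that all had means from 0.210 to 97.2. The word CCAAT (either strand) was present in 13 of 22 HOX windows (59.1%) and in 34.6% of all windows. CACGTG, the E-box word, which holds a CpG and reads the same on both strands, was present in 7 of 22 (31.8%) and in 7.26% of all. TATAAA was found in 22.7% of HOX windows against 11.5% of all, and TGATTNAT in 9.09% against 2.82%, each on either strand. TGANTCA, the AP-1 word, was found in 0 of 22 windows, and in 7.71% of all windows. None of the 22 belongs to a HOXB gene, and the differences between HOX and all windows were not tested. None of these words contains another. Windows of the same gene, such as the 7 of HOXA3, are not independent of each other, and a word match does not show binding.

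The clusters also hold microRNA genes, of which miR-196 is known to repress HOX transcripts. Mature sequences of miR-10 and miR-196 (RefSeq, GRCh38.p14) are shown with the seed, bases 2 to 8, in capitals. miR-196a-5p is encoded both in HOXB (MIR196A1, chr17:48632532-48632553) and in HOXC (MIR196A2, chr12:53991762-53991783), miR-196b-5p in HOXA (chr7:27169528-27169549) and miR-10a-5p in HOXB (chr17:48579904-48579926).
miR-196a-5p: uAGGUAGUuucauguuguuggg
miR-196b-5p: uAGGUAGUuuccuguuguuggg
miR-10a-5p: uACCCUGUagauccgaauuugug

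The seed of miR-196a and miR-196b is the same, AGGUAGU. A perfect match to it was present in the 3′ UTR (MANE Select transcript) of 7 of 35 HOX genes (20%), namely HOXA5, HOXA7, HOXA9, HOXB6, HOXB7, HOXB13 and HOXC8, against 7.504% of 15019 genes. The median 3′ UTR was 905 bases long in HOX genes and 1256 in all genes. Sites of miR-196a length are shown for 3 genes with high levels and for the site of HOXA7 with the most complementary bases (15 of 22), with the seed match in capitals. The first base shown is base 458 of the 3′ UTR in HOXB6, 207 in HOXB7, 850 in HOXC8 and 458 in HOXA7.
HOXB6: tggaaggagcacatACTACCTa
HOXB7: aacactgaaaaaatACTACCTa
HOXC8: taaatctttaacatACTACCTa
HOXA7: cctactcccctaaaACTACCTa

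HOXB6, HOXB7 and HOXC8, with means of 548, 558 and 710, thus stand beside HOXA5 and HOXA7, with 1.94 and 3.61, among the genes with a match. HOXA7 held 4 matches and HOXC8 held 3. The miR-10a seed was matched in 8.57% of the HOX genes, HOXA3 and HOXB3 among them, against 13.96% of all genes. The table lists the microRNA genes MIR10A, MIR196A2, MIR196B and MIR615 with means of 2.89, 0.440, 0.210 and 0.316. Poly(A) libraries capture precursors poorly and mature microRNAs not at all, so these values do not measure the microRNAs.

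Of 18 long noncoding RNAs of the clusters, 14 had a row and 8 had a mean of at least 10, against 68.5% of all rows. HOTAIR, a HOXC transcript antisense to the region between HOXC11 and HOXC12, was the highest, with a mean normalized count of 253, or 81.2 per kb. On the same scale HOXC11 was at 86.3 and HOXC12 at 19.7. HOXC13-AS, HOXC-AS1, HOXC-AS2 and HOXC-AS3 had means of 59.2, 10.6, 26.7 and 28.2. In HOXB, HOXB-AS1 had 61.8 and HOXB-AS3 had 25.7. In HOXA, HOXA10-AS at the posterior end had 278 reads, and its normalized count ran from 27.1 in the lowest library through a median of 42.8 to 57.7 in the highest. HOXA11-AS had 45 reads. At the anterior end HOXA-AS2 had 2 reads and HOXA-AS3 had 1, but HOTAIRM1 had 24. HOTTIP and HAGLR, at the posterior end of HOXA and in HOXD, had 1 read each. The libraries were stranded, but whether the counting used the strand is not given in the sources used here. Reads of antisense pairs can therefore not be told apart with certainty. HOXA10-AS overlaps 16.4% of HOXA10 exons and 13.9% of HOXA9 exons, and HOXA11-AS overlaps 27.2% of HOXA11 exons.

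HOX proteins bind DNA together with TALE homeodomain cofactors. Of these, 8 of 9 had a mean of at least 10, against 68.5% of all rows of the table. PBX2 was the highest at 703 per kb, with PBX3 at 176. The MEIS genes were lower, at 45.9 for MEIS3, 23.3 for MEIS2 and 9.91 for MEIS1, and PKNOX1 was at 66.4. PKNOX2 was close to 0, with a mean of 0.809. The ParaHox and EVX genes, homeobox genes related to HOX or next to the clusters, were nearly absent. Only EVX1, beside HOXA13, and GSX2 of the 8 had a row, with 2 and 3 reads.

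The regulators of the clusters were present on both sides. All 8 Trithorax side genes had a mean of at least 10, a minimum reached by 68.5% of all rows of the table. They ran from 90.1 per kb for the methyltransferase KMT2A to 1854 for PSIP1, which tethers it to chromatin. All 9 Polycomb side genes were also above the minimum, with EZH2, the H3K27 methyltransferase, at 220 per kb, SUZ12 at 447 as the highest and BMI1 at 10.3 as the lowest. Of 9 genes of retinoic acid, the classic inducer of anterior HOX genes, 7 had a mean of at least 10, against 68.5% of all rows. ALDH1A3, which makes retinoic acid, was the highest at 379 per kb, with a mean of 2022, whereas ALDH1A2 had a mean of 0.411. Of the receptors, RARA, RARG, RXRA and RXRB had means of 664, 908, 1324 and 926, and RARB had one of 14.3. The degrading enzymes CYP26B1 and CYP26A1 had means of 37.0 and 2.05.

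Of the 24 nearest coding genes, 3 on each side of each cluster, 22 had a row. Of these, 19 had a mean of at least 10, a minimum reached by 68.5% of all rows of the table. The farthest, NFE2L2, lies 1027760 bases from HOXD. Beside HOXD, LNPK and MTX2 lie 89882 and 78488 bases from the cluster and had means of 1320 and 393, while EVX2, at 8759 bases, had no row. Around HOXA, EVX1 and SNX10, at 42609 and 718610 bases, were low, with means of 0.267 and 3.69. SKAP2 on the anterior side had a mean of 140 and HIBADH on the posterior side one of 908. Beside HOXB, TTLL6 had a mean of 0.288, SKAP1 had no row and SNX11 had 362. Beside HOXC, CALCOCO1 had 875, SMUG1 317 and CBX5 7686.

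**Figure D4:**
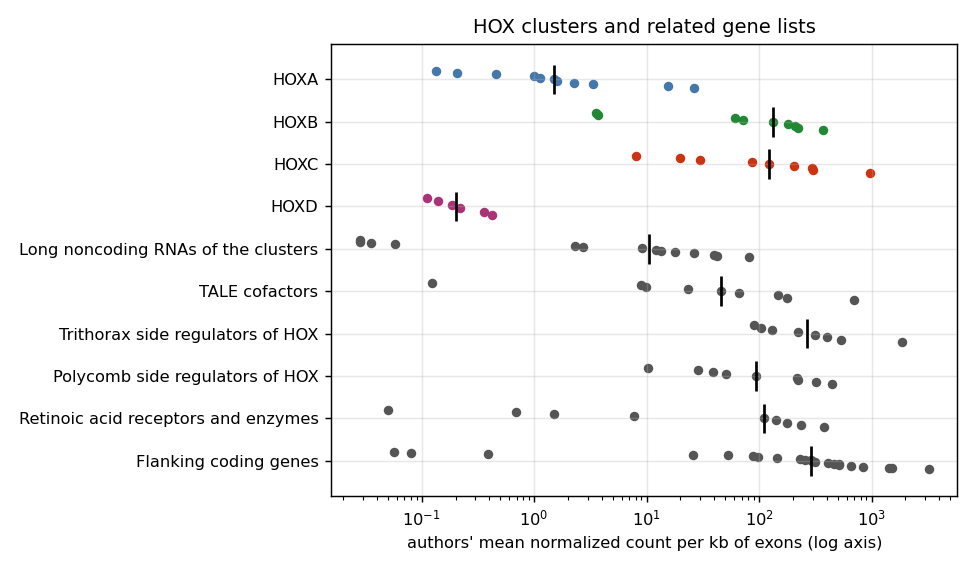
Authors' mean normalized count per kb of exons (log axis) for each gene with a row, by HOX cluster and by gene list, with the median as a black bar. The median is 122 for HOXC and 133 for HOXB, while it is 0.201 for HOXD and 292 for the coding genes around the clusters.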

How the data were processed

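Total RNA of triplicate BT-549/tet-WDR5shRNA cultures with vehicle or DOX was made into TruSeq Stranded mRNA libraries by the authors, who aligned reads with STAR to GRCh38 and normalized gene counts with DESeq2. Which program counted reads per gene, and how genes of low count were filtered, is not given in the sources used here. The mean normalized count used here is a signal value that the authors deposited as 1 mean over all 6 libraries. The other 5 columns of values hold the authors' own comparison of DOX with vehicle (log2 fold change, its standard error, Wald statistic, p-value and adjusted p-value). They were not used, so that no test was made. The design had set a count test for columns of single libraries, and the table has none.

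Means were divided by the exonic length in GENCODE 44, to which 17729 symbols matched directly and 593 through a RefSeq synonym, while 1470 did not match. Means of 50 or less were solved as sums of whole reads of 6 libraries, and accepted with 1 solution. On simulated data with the same size factors, 197 of 200 genes were recovered. Ranges over libraries span both treatments, and counts of 0 cover counting error only. The rule was to name every member and to describe those with a mean of at least 10 one by one, and some genes are not reported here by name. The members and lists were chosen with earlier results of these data known. The recovery of reads, the microRNA match search, the sequences shown and the limit of 1.5 times for a changed value were chosen after the data were seen. Computation used Python 3.11.15 with numpy 2.4.6, pandas 2.3.3 and matplotlib 3.10.9.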

Additional observations from a re-analysis of the deposited data

How the results depend on the processing

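Of 92 alternative values, 72 stayed within 1.5 times the reported value or named the same gene. All cluster shares did, and HOXC, HOXB, HOXA and HOXD kept this order with each of 5 length scalings, 1 of which, the MANE Select transcript length, was chosen after the data were seen, as were the comparisons of HOXC4 with HOXC5 and of HOXB3 with its neighbours and the left-out libraries. With coding length, the medians per kb were 2.85 for HOXA, 349 for HOXB, 309 for HOXC and 0.439 for HOXD, as coding length is shorter than exonic length. With only members of a mean of at least 10, the HOXA median was 9.38. The highest HOXD gene was HOXD9 per exonic length, but HOXD13 (gene number 13 in place of 9) with no length scaling and with coding length, and these genes rest on 5 and 6 reads. HOXC4 over HOXC5 was 6.27 with no length scaling and 5.92 with the longest or the MANE Select transcript. HOXB3 had 107, 349 and 137 per kb of its longest transcript, coding length and MANE Select transcript, and the lowest of HOXB2 to HOXB8 was then HOXB8 (gene number 8), also with no length scaling. Leaving out 1 library at a time, with fixed size factors, gave a summed HOXD level from 0.763 to 1.72 per kb, a HOXD13 mean from 0.172 to 1.03 and a HOXD9 mean from 0.252 to 0.943, each lowest without the same library. Of the 19 genes taken apart, 5 had a mean of at least 10, and 4 to 6 did so with 1 library left out, as HOXA9 and HOXB9 lie near the minimum. The count of 21 HOX genes was 26, 22, 17 and 16 with a minimum of 1, 5, 20 and 50. The CpG ratio of HOX to all windows was 1.41, and 1.56 with the bases before the start alone. No paired analysis was possible because the table has no columns of single libraries, and the tests of DOX against vehicle, with their alternatives, were not run for the same reason. Libraries could be left out only for the 19 genes taken apart, so that cluster shares were not recomputed.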

Other observations

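HOXB9 had 10, 3, 17, 3, 17 and 4 reads in the 6 libraries, listed from the largest to the smallest size factor (1.34, 1.16, 1.16, 0.967, 0.793 and 0.737). The reads of HOXB13, at a similar mean, were 14, 9, 14, 9, 10 and 11 in the same order. HOXA10-AS had 77, 67, 39, 40, 35 and 20 reads, and HOXA11 had 58, 45, 49, 31, 44 and 26. The libraries are not assigned to vehicle or DOX here, so no difference between treatments was tested for these genes.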
